A study of Rattus norvegicus with 10 samples.

Results

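The genes described here encode the solute carriers that move amino acids, neurotransmitters and mitochondrial metabolites across membranes, measured in the brain (hypothalamus area) of rats after 1 week of calorie restriction (CR). They were chosen by name. A probe set was taken if the platform annotation gave it exactly 1 gene symbol and that symbol began with Slc1a, Slc6a, Slc7a, Slc17a, Slc18a, Slc25a, Slc32a or Slc38a, with the astrocyte glutamate transporters Slc1a2 and Slc1a3 left out. This gave 95 genes of 14217 with a symbol, on 131 probe sets of 31099, and the probe set with the highest mean log2 signal stood for each gene. By known location 43 act at the plasma membrane, 7 on vesicles, 39 in mitochondria and 5 on other organelles, while Slc7a6os fits the naming rule but is no carrier.

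The tested animals were male Wistar rats, 6 weeks old, fed the AIN-93G diet for 1 week at an intake lowered by 5, 10, 20 or 30% (the CR groups). The control rats, of the same strain, sex, age and diet, received 100% of the ad libitum intake. All rats were fasted for 16 h before tissue collection, and RNA of 5 rats per group was pooled and hybridized to 1 Affymetrix array. The series holds 10 such arrays, of which the 5 of the 1 week experiment were used.

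Solute carriers are membrane proteins that exchange or co-transport small molecules. At the plasma membrane of neurons and glia they clear transmitters from the synapse and supply amino acids. On synaptic vesicles they load glutamate, GABA, acetylcholine or monoamines for release. In the mitochondrial inner membrane the Slc25 family moves nucleotides, phosphate, amino acids, di- and tricarboxylates, acylcarnitine and metal ions between cytosol and matrix.

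The 5 arrays had the same trimmed mean signal, 158.8 in MAS5 units, which are linear probe set intensities scaled by array. The 4 CR arrays correlated at 0.912 to 0.922 with each other and at 0.852 to 0.874 with the control array, over log2 signals of all probe sets. Signals under 10 made up 11.7 to 14.4% of the CR arrays and 24.0% of the control array. Of the poly-A spike-in probe sets, which follow RNA added to each sample before labelling, 24 of 27 were lower in CR than in the control, with a median log2 difference of -1.16. Of the hybridization spike-ins 6 of 18 were lower, with a median of 0.16. The log2 ratio of 3' to 5' signal was 0.40 to 0.79 on CR arrays and 0.19 on the control array for GAPDH. For beta-actin it was 2.19 to 2.8 on CR arrays and 1.9 on the control array, so both ratios were higher on every CR array. Because 1 control array enters every comparison, a property of that array cannot be told apart from an effect of CR.

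Markers of the tissue were present. The summed signal of hypothalamus markers was 16434.2 to 18758.0 on CR arrays and 16560.3 on the control array, although Pomc and Sim1 lay below the filter on low signals. Several marker lists of other tissue shifted between the groups. The summed pituitary signal was 2046.6 to 2848.7 on CR arrays and 988.4 on the control array, with 3 of 3 measured markers higher. Most of it was Cga, at 1713.9 to 2332.9 on CR arrays and 877.4 on the control array. Tshb and Lhb had control signals of 43.3 and 33.6, below the level of the filter (53.3), so they were measured only through the CR arrays. Prl, Gh1 and Fshb lay below the filter. The summed thalamus signal was 2085.6 to 2253.0 on CR arrays and 2913.6 on the control array, with 2 of 4 lower. Most of that gap came from Calb2, at 1034.4 to 1207.3 on CR arrays and 1773.7 on the control array. Cbln1 was the other lower marker (-0.72), while Tcf7l2 (0.21) and Prkcd (0.02) were not called. The summed endothelial signal was 1050.6 to 1160.4 on CR arrays and 1555.6 on the control array, and most of that gap came from Cldn5 (-1.36, limma adjusted p = 0.00064). The other 4 endothelial markers did not pass, with Pecam1 at 1.28 and Flt1 at 0.68. Oligodendrocyte sums were 10687.2 to 11154.7 on CR arrays against 12276.1 on the control array. Meningeal sums were 1390.7 to 1656.0 against 2007.8, with called markers both ways (Dcn -2.09, Col1a1 1.14). Choroid plexus sums were 218.9 to 291.1 against 113.5, with Ttr called higher (1.93). The control signal of Ttr (35.5) lay below the level of the filter, so it was measured only through the CR arrays. The other measured choroid plexus marker, Folr1, was not called (0.29). Kl and Kcnj13 lay below the filter, with Kl below the control and Kcnj13 above it on all CR arrays. Astrocyte sums spanned 19044.3 to 19729.3 on CR arrays against 19237.1, and neuron sums 9989.4 to 10999.8 against 10233.9 on the control array. The part of these shifts in the carrier results was not tested, and in pooled tissue fewer cells of a type and less RNA per cell cannot be told apart.

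The 3 mitochondrial carriers that supply phosphate and ADP for ATP synthesis are shown first, since all 3 were lower in CR. Their 250 bases before the transcription start, from RefSeq on the GRCr8 assembly, are given 5' to 3' on the strand of the gene, with capitals marking the GC box (GGGCGG, or CCGCCC where it lies on the other strand). Slc25a3 is at chr7:27506628-27506877 on the minus strand, Slc25a4 at chr16:52805271-52805520 on the plus strand and Slc25a5 at chrX:120897366-120897615 on the plus strand.
Slc25a3: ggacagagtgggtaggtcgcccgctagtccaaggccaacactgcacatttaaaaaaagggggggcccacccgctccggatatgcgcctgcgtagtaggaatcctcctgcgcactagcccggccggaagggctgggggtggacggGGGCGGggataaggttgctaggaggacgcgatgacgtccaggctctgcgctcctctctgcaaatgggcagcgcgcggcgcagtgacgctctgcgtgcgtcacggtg
Slc25a4: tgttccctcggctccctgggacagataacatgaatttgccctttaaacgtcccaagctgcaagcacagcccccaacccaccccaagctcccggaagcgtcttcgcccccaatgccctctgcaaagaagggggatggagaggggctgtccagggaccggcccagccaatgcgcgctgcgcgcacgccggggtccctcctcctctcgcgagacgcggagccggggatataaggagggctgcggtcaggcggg
Slc25a5: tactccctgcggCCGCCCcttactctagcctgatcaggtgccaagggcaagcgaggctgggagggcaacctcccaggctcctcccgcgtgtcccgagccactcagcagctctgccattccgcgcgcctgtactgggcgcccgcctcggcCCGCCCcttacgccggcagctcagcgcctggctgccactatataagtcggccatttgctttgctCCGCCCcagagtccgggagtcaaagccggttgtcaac

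The Slc25a3 window held 1 GC box, the Slc25a4 window 0 and the Slc25a5 window 3, so carriers that were lower together did not share this motif in these windows. A promoter entry was found for 77 of the 95 members. The motif was in 40 of these 77 (51.9%) and in 20 of 34 mitochondrial carriers (58.8%), against 10197 of 33469 promoter windows in the table (30.5%). It was in 4 of the 7 matched mitochondrial carriers that were lower in CR (57.1%), and in 13 of the 18 matched ones that were measured and not called (72.2%). The promoter table was not limited to genes on the array or to measured genes, so its share comes from an unlike set. A match is a description of the letters and not evidence of binding.

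Of the 95 members, 63 passed the filter on low signals (mean log2 signal above the 50th percentile), among 9479 such genes. The 4 CR arrays were set against the control array with limma, adjusted by Benjamini-Hochberg over 15521 probe sets, and a gene was called at an adjusted p below 0.05. Since there was 1 control array, its spread was taken to equal that of the CR arrays, and the 4 arrays stood for 4 CR levels rather than repeats of 1 level. Differences are given on the log2 scale, CR minus control, with the SD of the 4 CR ratios.

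Among the 63 measured members, 5 were higher in CR (7.94%) and 12 were lower (19.0%), with a median log2 difference of -0.22. Of the 5 higher, 2 (Slc7a8 and Slc25a37) had a control signal below the level of the filter (53.3), and of the 12 lower, 0 had a mean CR signal below it. The background was 11.6% of genes called higher and 11.3% called lower, with a median of -0.02. Over probe sets it was 14.5% higher and 11.0% lower. The share of members called higher was under the background and the share called lower was above it. All 4 CR signals lay above the control in 14 members (22.2%, background 33.3%) and below it in 31 (49.2%, background 35.9%). Since 69.2% of all genes had their 4 CR signals on one side of the single control, such a separation is described for single genes below and supports no call. These shares depend on how arrays are scaled. With each array set to the same median, 2 members were higher and 31 lower, while over all genes 4.01% were higher and 36.2% lower. That scaling moved the median of all genes to -0.46 and the median of the members to -0.66.

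The classes differed in their counts. Among mitochondrial carriers 8 of 31 were lower (25.8%) and 2 were higher (6.45%), with a median of -0.39. With median scaling 18 were lower and 1 higher. Among plasma membrane carriers 2 of 22 were lower and 2 higher (9.09% each), with a median of -0.17, and with median scaling 9 were lower and 1 higher. Among vesicular carriers 1 of 4 was lower and 0 were higher, with a median of 0.04 that became -0.40 with median scaling. These are descriptions of each class beside the background, and the difference between classes was not tested. Some of these calls rest on how limma sets the spread. With the spread taken as equal at all signal levels, 4 members were called lower, of which 2 were mitochondrial, while over all genes 8.13% were called higher and 5.77% lower.

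**Figure D1:**
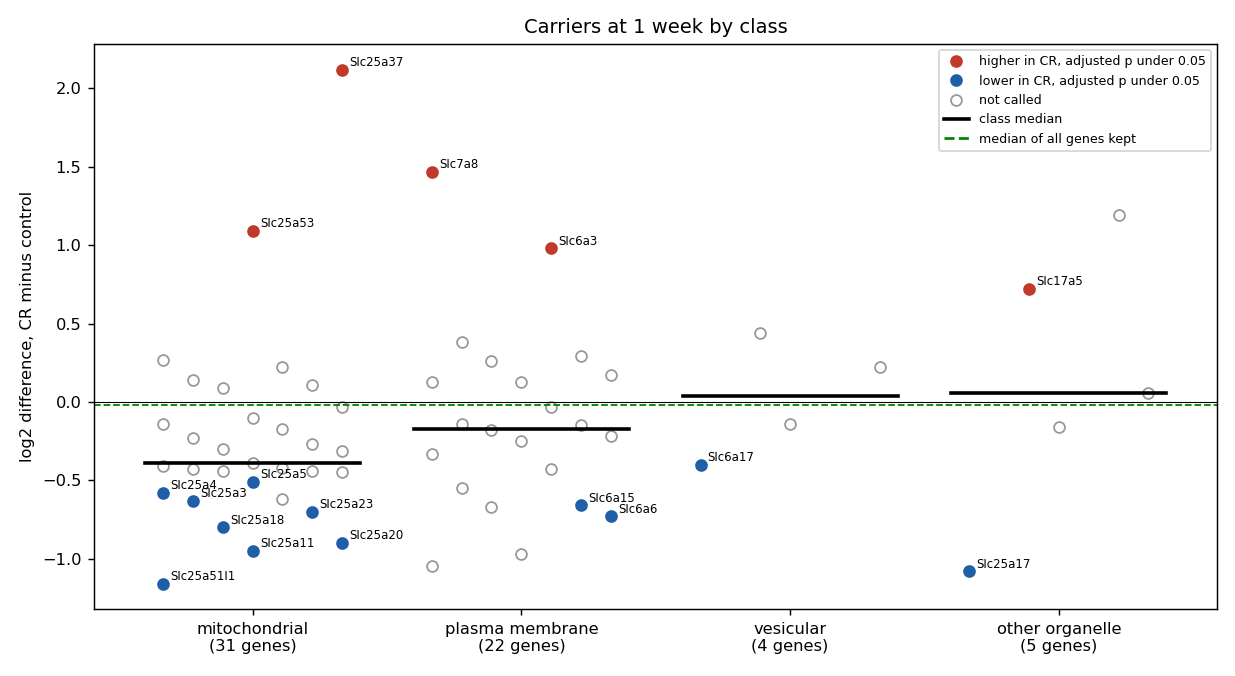
Log2 difference of CR against control for each measured carrier (1 point per gene, mean of 4 CR arrays minus the control array), by class, with called genes marked and the class median drawn. The medians are -0.39 for mitochondrial, -0.17 for plasma membrane and 0.04 for vesicular carriers, beside -0.02 for all genes.

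Mitochondrial carriers leaned lower at each CR level. Of the 31 measured, 24 had a difference below 0 (77.4%, beside 51.6% of all genes), and 19 had all 4 CR signals below the control (61.3%, beside 35.9%). The median log2 ratio of the class was -0.29 at 5%, -0.38 at 10%, -0.56 at 20% and -0.27 at 30% CR, beside -0.01, -0.03, -0.03 and 0.01 over all genes. More than 1.5-fold lower were 16.1, 22.6, 38.7 and 19.4% of the carriers at these levels, beside 13.8, 15.9, 17.0 and 12.6% of all genes, so the share at 5% CR lay near that of all genes. More than 1.5-fold higher were 6.45% of the carriers at each level, beside 16.0, 16.8, 17.4 and 15.3% of all genes. The class median was -0.22 without the 20% array. Brighter genes as a whole were called lower more often, 16.9% of the genes above the 75th percentile of signal. Of the 16 mitochondrial carriers above it, 6 were lower (37.5%), 0 were higher and 14 had all 4 CR signals below the control (87.5%, beside 42.9% of all genes above it).

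The carriers of ATP supply were lower throughout. Slc25a3, the phosphate carrier, had 3161.8, 3011.2, 2795.7 and 2987.3 at 5, 10, 20 and 30% CR (the order used from here on), against 4605.3 in the control. All 4 CR signals lay below the control and close together, a fall of 1.54-fold (log2 difference -0.63 ± 0.07, SD, n = 4; limma adjusted p = 0.0025). Slc25a4, the ADP/ATP carrier of heart, muscle and brain, had 3359.7, 2926.9, 2662.6 and 3709.7 in CR, against 4690.0 in the control (-0.58 ± 0.21, limma adjusted p = 0.026). Slc25a5, the second ADP/ATP carrier, had 2610.5, 2266.1, 2218.8 and 2859.1 in CR, against 3518.2 in the control (-0.51 ± 0.17, limma adjusted p = 0.028). In both ADP/ATP carriers the 10 and 20% arrays were the lowest and the 30% array the highest, still under the control. The Slc25a3 call held under every alternative run, while those of Slc25a4 and Slc25a5 were lost with the spread taken as equal.

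The next set carries glutamate, aspartate and the dicarboxylates of the malate-aspartate shuttle, which moves reducing equivalents into mitochondria. Slc25a11, the oxoglutarate/malate carrier of that shuttle, had 484.3, 498.7, 454.7 and 526.8 in CR, against 949.3 in the control. All 4 CR signals lay below the control, a 1.94-fold fall (-0.95 ± 0.09, limma adjusted p = 0.0014), and the call held under every alternative run. Slc25a18, a glutamate carrier, had 386.3, 504.1, 444.4 and 357.8 in CR, against 732.6 in the control (-0.80 ± 0.22, limma adjusted p = 0.014), lost with the spread taken as equal. The other members of the set did not pass. Slc25a12, the aspartate/glutamate carrier of brain, had 359.4, 438.4, 362.9 and 336.2 in CR, against 488.0 in the control (-0.39 ± 0.16, limma adjusted p = 0.13). Slc25a22, the other glutamate carrier, had 506.2, 346.1, 360.7 and 465.5 in CR, against 561.6 in the control (-0.44 ± 0.27, limma adjusted p = 0.17). Slc25a1, the citrate carrier, which exports citrate for lipid synthesis, had 308.3, 267.9, 255.5 and 276.1 in CR, against 377.5 in the control (-0.45 ± 0.12, limma adjusted p = 0.086). With median scaling, which shifted all genes downward, Slc25a12, Slc25a22 and Slc25a1 were called lower (adjusted p = 0.0051, 0.011 and 0.0042). Slc25a13, the other aspartate/glutamate carrier, had 132.1, 105.1, 128.3 and 149.5 in CR, against 136.7 in the control, with the 30% array above it (-0.10 ± 0.21, limma adjusted p = 0.82).

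Enzymes that work with these carriers were set beside them. Among the glutamate and GABA enzymes, 9 were on the array and 8 were measured. Of these, 1 was lower (12.5%, near the background of 11.3%) and 0 were higher (background 11.6%), with a median of -0.25. The one that fell was Got1, the cytosolic aspartate aminotransferase of the malate-aspartate shuttle, at 393.7, 356.2, 364.4 and 516.3 in CR, against 1480.1 in the control. Its log2 difference was -1.88 ± 0.25, or 3.67-fold lower (limma adjusted p = 0.00037). Got2, its mitochondrial counterpart, differed by -0.30 ± 0.08 (limma adjusted p = 0.085), and Gad1, a GABA-forming enzyme, by -0.21 ± 0.12 (limma adjusted p = 0.24). Of 13 other genes of mitochondrial transport, all measured, 2 were lower (15.4%, background 11.3%) and 0 higher, with a median of -0.01. Vdac2, an outer membrane channel, had 2154.9, 1968.9, 1635.6 and 1900.8 in CR, against 3203.1 in the control (-0.75 ± 0.17, limma adjusted p = 0.0047). Mpc2, a subunit of the pyruvate carrier, differed by -0.46 ± 0.16 (limma adjusted p = 0.045).

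The other lower carriers handle fatty acid and nucleotide exchange. Slc25a20, which brings acylcarnitines in for beta-oxidation, had 176.7, 111.2, 117.4 and 161.8 in CR, against 259.7 in the control (-0.90 ± 0.33, limma adjusted p = 0.047). Its call was lost without the 10% array (adjusted p = 0.069) or the 20% array (0.073). Slc25a23, a calcium-regulated ATP-Mg/phosphate carrier, had 316.0, 427.4, 419.7 and 372.3 in CR, against 619.1 in the control (-0.70 ± 0.20, limma adjusted p = 0.023). Slc25a51l1, named for its likeness to Slc25a51, had 103.6, 58.3, 75.3 and 104.4 in CR, against 185.2 in the control (-1.16 ± 0.40, limma adjusted p = 0.044). Its call was lost without the 20% array (adjusted p = 0.068). The calls of all 3 were also lost with quantile normalization and with the spread taken as equal. Without a filter those of Slc25a20 and Slc25a51l1 were lost too.

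The pair that rose in CR held an iron carrier and a carrier of unknown substrate. Slc25a37, mitoferrin-1, which imports iron for heme and iron-sulfur clusters, had 109.5, 66.8, 94.8 and 43.4 in CR, against 17.0 in the control, with a log2 difference of 2.12 ± 0.59 (limma adjusted p = 0.018). Its control signal lay below the level of the filter, so it was measured only through the CR arrays and the size of its difference is uncertain. With a pseudocount of 13.7 the difference was 1.53. Slc25a53 had 131.6, 143.9, 134.3 and 192.8 in CR, against 70.0 in the control (1.09 ± 0.26, limma adjusted p = 0.019). Neither call held after quantile normalization (1.34, adjusted p = 0.13, and 0.91, adjusted p = 0.051), and Slc25a53 also missed the threshold with median scaling (0.65, adjusted p = 0.10). The paralog of mitoferrin-1, Slc25a28 (mitoferrin-2), had 223.1, 273.5, 279.9 and 279.2 in CR, against 294.7 in the control (-0.17 ± 0.16, limma adjusted p = 0.56).

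**Figure D2:**
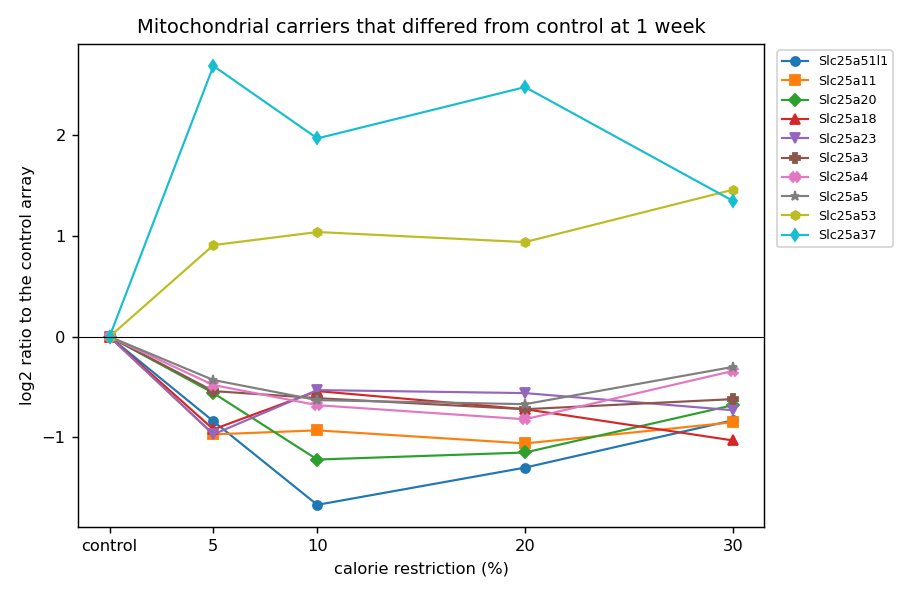
Log2 ratio of each CR array to the control array, by CR level (5, 10, 20 and 30%), with the control at 0. Only the 8 mitochondrial carriers called lower and the 2 called higher are drawn, so the 21 measured and not called are absent. Medians over all 31 measured carriers, not drawn, are -0.29, -0.38, -0.56 and -0.27. Slc25a37 stands at the top at 5, 10 and 20% CR.

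At the plasma membrane 22 of 43 carriers were measured, and 18 of these were not called. Slc7a8 (LAT2), an exchanger of neutral amino acids, had 126.1, 160.4, 93.8 and 138.1 in CR, against 45.9 in the control. All 4 CR signals were above the control (1.47 ± 0.33, limma adjusted p = 0.010), whose own signal lay below the level of the filter, and with quantile normalization it just missed the threshold (1.11, adjusted p = 0.051). Its relative Slc7a5 (LAT1), which brings large neutral amino acids across the blood-brain barrier, had 82.8, 40.7, 63.4 and 129.1 in CR, against 115.7 in the control (-0.67 ± 0.70, limma adjusted p = 0.39). The 30% signal of Slc7a5 lay above the control and the other 3 below it. Slc7a11, the cystine/glutamate exchanger, had 600.2, 635.4, 618.0 and 512.5 in CR, against 600.0 in the control (-0.03 ± 0.14, limma adjusted p = 0.92), and was called lower with median scaling (-0.46, adjusted p = 0.037). All 3 proteins pair with the heavy chain Slc3a2 (4F2hc), which had 642.0, 575.3, 672.4 and 657.4 in CR, against 1046.6 in the control (-0.72 ± 0.10, limma adjusted p = 0.0047).

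The transporters that clear transmitters varied. Slc6a3, the dopamine transporter, had 387.7, 238.3, 384.2 and 508.5 in CR, against 186.1 in the control (0.98 ± 0.45, limma adjusted p = 0.0498). This call stood at the threshold and was lost under 8 alternatives, among them median scaling (0.54, adjusted p = 0.20) and leaving out the 5% array (0.074), the 20% array (0.078) or the 30% array (0.054). Th, the rate-limiting enzyme of dopamine synthesis, had 532.9, 459.6, 530.3 and 813.4 in CR, against 491.3 in the control (0.21 ± 0.36, limma adjusted p = 0.58), and the 30% array was the highest for both genes. Summed brainstem monoaminergic markers were 522.0 to 1020.3 on CR arrays and 575.4 on the control array. Th is itself in that list and made up most of the sum, 491.3 on the control array and 813.4 on the 30% array. The sum is therefore no measure separate from Th, and the part of brainstem tissue in the Slc6a3 result was not tested. Slc6a6, the taurine transporter, had 249.3, 218.1, 226.5 and 305.0 in CR, against 411.2 in the control (-0.73 ± 0.22, limma adjusted p = 0.030). A second Slc6a6 probe set ran the other way (0.59, adjusted p = 0.16). The Slc6a6 call was lost without the 10% array (adjusted p = 0.051), with quantile normalization and with the spread taken as equal. Slc6a9, the glial glycine transporter, had 884.9, 786.0, 1364.8 and 1046.7 in CR, against 914.6 in the control (0.13 ± 0.35, limma adjusted p = 0.74). Slc1a1, the neuronal glutamate transporter, had 397.4, 429.0, 360.4 and 377.2 in CR, against 462.4 in the control (-0.25 ± 0.11, limma adjusted p = 0.28), and was called lower with median scaling (-0.68, adjusted p = 0.010).

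Slc6a15, a neutral amino acid transporter of neurons, had 250.6, 242.9, 241.1 and 266.7 in CR, against 394.4 in the control. The CR signals stayed within a narrow band under the control (-0.66 ± 0.07, limma adjusted p = 0.019), and the call held under every alternative run. The Slc38 family, which carries glutamine between astrocytes and neurons, held no called gene among 6 measured. Slc38a1 had 1053.0, 1060.6, 1132.2 and 1028.5 in CR, against 1184.3 in the control (-0.15 ± 0.06, limma adjusted p = 0.38). Slc38a2, a carrier induced by amino acid shortage in cultured cells, had 928.7, 820.0, 801.9 and 825.3 in CR, against 747.3 in the control (0.17 ± 0.10, limma adjusted p = 0.37). All 4 CR signals of Slc38a1 were under the control and all 4 of Slc38a2 above it, by amounts that did not pass. With median scaling Slc38a1 was called lower (-0.59, adjusted p = 0.0046) and Slc38a2 differed by -0.27. Slc38a3, the astrocyte glutamine carrier, had 165.6, 38.3, 92.6 and 93.4 in CR, against 178.3 in the control, with a wide spread (-1.05 ± 0.87, limma adjusted p = 0.23).

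Genes of the amino acid response, which includes several carriers as targets, were counted from a list. Of 9 on the array 8 were measured, 1 was higher and 4 were lower, with a median of -0.36. Asns (asparagine synthetase) had 209.4, 208.1, 224.9 and 208.8 in CR, against 439.7 in the control (-1.05 ± 0.05, limma adjusted p = 0.0025). Atf4, the transcription factor of the response, had 928.2, 916.0, 788.8 and 942.1 in CR, against 1536.4 in the control (-0.79 ± 0.12, limma adjusted p = 0.0029). Ddit3, a target of Atf4 in the stress response, moved the other way, at 818.0, 841.9, 834.6 and 810.9 in CR, against 370.6 in the control (1.16 ± 0.03, limma adjusted p = 0.00036). Slc3a2, given above, and Ddit4, an inhibitor of mTORC1 (-0.72 ± 0.22, limma adjusted p = 0.022), were the other lower genes.

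Vesicular carriers differed little. Slc17a6 (VGLUT2), which loads glutamate and is the main such carrier of hypothalamus, had 1976.3, 2117.0, 1876.5 and 1863.4 in CR, against 2149.9 in the control (-0.14 ± 0.09, limma adjusted p = 0.40). Slc32a1, which loads GABA and glycine, had 821.4, 945.3, 691.7 and 711.4 in CR, against 579.6 in the control (0.44 ± 0.21, limma adjusted p = 0.095). Slc18a2 (VMAT2), which loads monoamines, had 223.0, 258.9, 253.5 and 210.9 in CR, against 202.5 in the control (0.22 ± 0.14, limma adjusted p = 0.45). The signals of Slc32a1 and Slc18a2 were above the control on all 4 CR arrays and those of Slc17a6 below it, and none passed the test. With median scaling Slc17a6 was called lower (-0.57, adjusted p = 0.0042), Slc32a1 differed by 0.00 and Slc18a2 by -0.22.

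Slc6a17 (NTT4), an amino acid carrier of synaptic vesicles, was the vesicular member that passed. It had 2126.7, 2201.0, 1997.3 and 2362.8 in CR, against 2853.5 in the control (-0.40 ± 0.10, limma adjusted p = 0.031). The call was lost without the 5% array (adjusted p = 0.068) or the 10% array (0.051). Of 8 other vesicle membrane proteins on the array 6 were measured, 3 were lower and 0 higher, with a median of -0.43. Sv2b, a vesicle glycoprotein, had 481.5, 566.4, 467.4 and 316.8 in CR, against 1134.9 in the control (-1.34 ± 0.36, limma adjusted p = 0.0049). The others were Synpr (-0.48 ± 0.09, limma adjusted p = 0.031) and Syp (-0.37, limma adjusted p = 0.036), both membrane proteins of the synaptophysin family. Among enzymes and partners of monoamines, acetylcholine and glycine, 3 of 8 measured were lower (37.5%, background 11.3%) and 0 higher, with a median of -0.43. They were Ddc, the aromatic amino acid decarboxylase (-1.25 ± 0.25, limma adjusted p = 0.0053), Maoa, which breaks down monoamines (-0.94 ± 0.09, limma adjusted p = 0.0017), and Gcsh, of the glycine cleavage system (-0.87 ± 0.14, limma adjusted p = 0.0031).

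**Figure D3:**
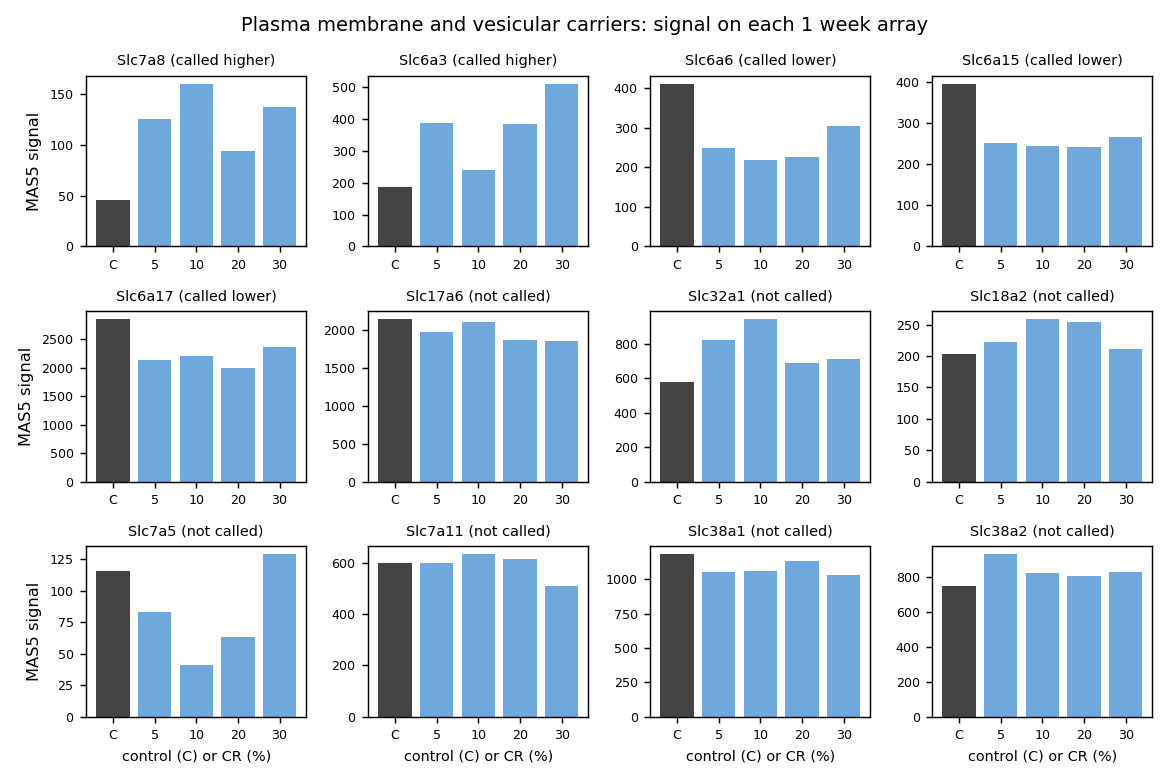
MAS5 signal of 12 carriers on each 1 week array, control then 5, 10, 20 and 30% CR (1 bar per array of pooled RNA, from 0, so there are no error bars). Slc7a8 and Slc6a3 stand above the control on all 4 CR arrays, Slc6a6, Slc6a15 and Slc6a17 below it, and Slc7a11 stays near it.

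Of the 5 members on other organelles, 1 was higher and 1 lower. Slc25a17, which carries cofactors across the peroxisomal membrane, had 395.3, 358.2, 372.0 and 478.0 in CR, against 840.4 in the control (-1.08 ± 0.18, limma adjusted p = 0.0025). Slc17a5 (sialin), which exports sialic acid from lysosomes, had 351.0, 390.5, 359.0 and 406.2 in CR, against 227.8 in the control (0.72 ± 0.10, limma adjusted p = 0.011). The Slc25a17 call held under every alternative run, and that of Slc17a5 was lost with median scaling (0.28, adjusted p = 0.25). Slc38a7, a lysosomal glutamine carrier, had 63.9, 125.9, 110.9 and 63.9 in CR, against 38.0 in the control (1.19 ± 0.52, limma adjusted p = 0.082).

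By fold alone, 5 members were more than 1.5-fold higher at all 4 CR levels (background 8.88%) and 4 more than 1.5-fold lower (background 6.19%). As deposited, the members' counts by fold lay near the background in both directions, but they moved with the processing. They were 1 higher and 22 lower with median scaling, which moved the median of all genes to -0.46. Without a filter, where all 95 members were counted, 19 were higher, and 7 were lower without the 5% array. The share of all genes past this fold at these settings is not given here, so these counts stand without a background. Over CR level itself, from 5 to 30%, 0 members had a slope that passed after adjustment, and the background was 0.0% of probe sets. At an unadjusted p under 0.05, 743 probe sets had a slope (4.79%), with 1 member among them, Slc25a46, whose slope was -0.16 log2 per 10 points of CR. With 4 arrays and 2 residual degrees of freedom, an order of CR levels was not detectable for these genes. The largest slopes were 0.37 for Slc7a5, 0.31 for Slc38a9 and 0.26 for Slc6a13 upward, and -0.40 for Slc25a37, -0.23 for Slc25a38 and -0.22 for Slc6a7 downward, per 10 points.

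The 32 members below the filter included several transmitter carriers. Slc6a2, the noradrenaline transporter, had 47.9, 28.8, 21.4 and 36.1 in CR, against 5.3 in the control. Slc6a4, the serotonin transporter, had 51.6, 39.1, 63.8 and 73.3 in CR, against 9.3 in the control. Slc6a5, the neuronal glycine transporter, had 35.4, 14.6, 8.6 and 11.7 in CR, against 1.7 in the control. Their mRNA is made mainly in brainstem and spinal neurons, and signals of this size can be background. Of the 32, all 4 CR signals were above the control in 15 (46.9%), which lay under the background of 53.6% for genes below the filter, and the control signal was under 10 in 17. Slc17a7 (VGLUT1) had 42.5, 14.2, 16.9 and 49.2 in CR, against 13.6 in the control. Slc18a1 (VMAT1) had 10.5, 5.9, 39.3 and 25.2 in CR, against 7.9 in the control. Slc18a3, which loads acetylcholine, had 74.9, 21.6, 15.5 and 19.0 in CR, against 18.3 in the control. Slc6a11, a GABA transporter, had 28.4, 31.6, 13.5 and 17.1 in CR, against 18.9 in the control, and overlapped it, as did Slc18a1 and Slc18a3. No test was made on these genes.

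The probe sets of one gene did not always move together. Of 14 members with more than 1 measured probe set, the log2 differences had the same sign in 4 (Slc1a1, Slc6a17, Slc6a20a and Slc25a46) and opposite signs in 10. The brightest probe set of Slc6a8, the creatine transporter, had 849.8, 888.8, 788.2 and 839.8 in CR, against 647.1 in the control (0.38 ± 0.07, limma adjusted p = 0.052). A second one had 69.1, 82.0, 67.3 and 91.2 in CR, against 157.2 in the control (-1.03, limma adjusted p = 0.037). For Slc6a9 the second probe set had 180.7, 135.9, 117.8 and 149.1 in CR, against 291.8 in the control (-1.02, limma adjusted p = 0.018), while the brightest did not pass. For Slc25a46, a protein of the outer membrane that shapes mitochondria, the second had 68.9, 31.3, 52.9 and 60.1 in CR, against 195.7 in the control (-1.94, limma adjusted p = 0.014), while the brightest differed by -0.23. For Slc25a15, the ornithine carrier, 1 dimmer probe set was higher (1.5, limma adjusted p = 0.026) and the brightest differed by 0.14. Which transcripts the probe sets detect was not examined, nor was cross-hybridization between close paralogs such as Slc25a4 and Slc25a5.

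**Figure D4:**
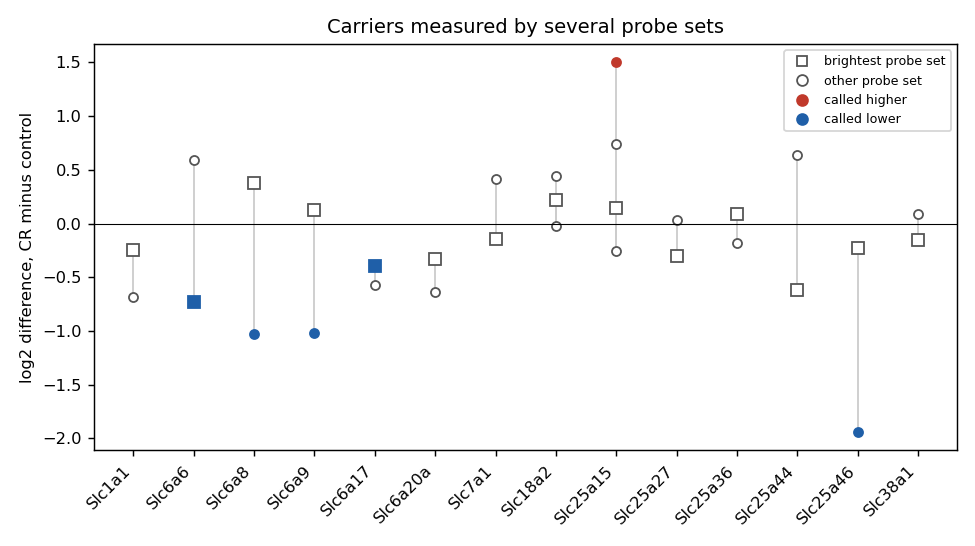
Log2 difference of CR against control for every measured probe set of the members with more than 1 (squares for the brightest, circles for the others, filled where called). The signs are equal in 4 of 14 genes, and Slc25a46 reaches -1.94.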

How the data were processed

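RNA of 5 rats per group was pooled and measured on 1 Affymetrix rat genome array. The deposited values are linear signal intensity from MAS5, which the submitters' processing notes name. Detection calls were not used. MAS5 subtracts mismatch signal, so low signals are noisy. The 1 month columns correlated at 0.036 to 0.052 with the 1 week columns, against 0.918 to 0.935 among themselves, so their rows do not follow the probe set identifiers and they were not used.

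Signals were taken as log2 with no pseudocount after 4 zeros were set to 0.1, 57 control probe sets were left out, and probe sets were kept if their mean on this scale exceeded the 50th percentile. R 4.3.3 with limma 3.58.1 fitted CR against control (3 residual degrees of freedom) and the slope over CR level (2), with a trend in eBayes. The fit of CR against control was first run on simulated data, in which the control was drawn like the CR arrays. That run cannot show how the fit behaves with a control array that differs as a whole. Python 3.11.15 did the counts. The number of arrays limits the precision, and p-values measure only the spread between the 4 CR arrays. Alternatives were another scaling, normalization, filter, pseudocount (13.7), eBayes setting, fold or probe set, and leaving out each CR array. Cyclic loess was chosen after seeing the data.

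The members and lists were chosen with earlier results of these data known. The genes named were, by class and direction, up to 6 called members with the largest change, a list of transmitter and mitochondrial carriers, the 3 largest slopes each way, and up to 3 called genes per partner list and direction. Slc17a5, Slc25a17, Slc38a7, Slc25a13, Slc25a28, Slc25a46, Slc25a15, Slc6a8, Th, Got2, Gad1 and Ddit4 were added after their values were seen. No probe set with a single symbol was matched to Slc17a8. All 95 symbols matched RefSeq by Entrez identifier. Over all genes 11.6% were called higher and 11.3% lower, which is the background of the marker counts that follow. Marker lists gave called counts, higher and lower, of 1 and 1 of 5 (astrocyte), 0 and 2 of 4 (oligodendrocyte), 1 and 1 of 4 (neuron), 1 and 1 of 5 (meningeal), 1 and 0 of 2 (choroid plexus), 0 and 0 of 1 (cortex and hippocampus), 0 and 0 of 2 (brainstem) and 0 and 0 of 4 (hypothalamus).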

Additional observations from a re-analysis of the deposited data

How the results depend on the processing

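With 5 members higher and 12 lower in CR, median scaling gave 2 and 31, beside 4.01% and 36.2% of all genes. The count higher was 3 of 63 with quantile normalization, beside 9.89% of all genes. It was 13 of 95 without a filter, beside 13.2%, and 3 of 37 with the filter at the 75th percentile, beside 14.0%. For the second brightest probe set it was 0. When a CR array was left out it was 4 to 5, beside 9.81 to 11.5% of all genes. The count lower was 4 without the trend in eBayes, beside 5.77% of all genes, and 3 for the second brightest probe set. When a CR array was left out it was 9 to 13, beside 9.59 to 12.2% of all genes. These shares are also the background of the class counts that follow. The second brightest setting held only members with more than 1 measured probe set, so its counts and medians rest on fewer than 63 members. Its share over all genes is not given here. Mitochondrial carriers (8 lower, 2 higher) gave 18 and 1 with median scaling, 5 and 0 with quantile normalization, 2 lower without the trend, and 1 and 0 for the second brightest probe set. Those higher were 4 without a filter and 0 at the 75th percentile. Leaving out a CR array gave 6 to 9 lower and 2 higher. Plasma membrane carriers (2 and 2) gave 9 lower and 1 higher with median scaling and 1 lower with quantile normalization. Without the trend 1 was lower and 1 higher. The count higher was 8 without a filter, 1 with the pseudocount, 1 with robust eBayes and 0 for the second brightest probe set. Leaving out a CR array gave 1 to 2 each way. Vesicular carriers (1 lower, 0 higher) gave 2 lower with median scaling, 0 without the trend and 0 for the second brightest probe set. They gave 0 lower and 1 higher when every member was placed by its family name. That placing took Slc6a17 out of the class and brought in Slc17a1 to Slc17a5, of which Slc17a5 was the one called higher. Leaving out a CR array gave 0 to 1 lower.

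The mitochondrial median (-0.39) was -0.83 with median scaling, -0.18 for the second brightest probe set, and -0.37 to -0.22 when a CR array was left out. The plasma membrane median (-0.17) was -0.60 with median scaling, -0.11 with quantile normalization, 0.26 without a filter, -0.64 for the second brightest probe set, and -0.18 to -0.12 when a CR array was left out. The vesicular median (0.04) was -0.40 with median scaling, 0.44 without a filter, -0.29 for the second brightest probe set and 0.33 by family name, and 0.0 to 0.08 when a CR array was left out. Past 1.5-fold at all levels were 5 higher and 4 lower, and the alternatives that follow stand without a share over all genes. They were 1 and 22 with median scaling, 3 higher with quantile normalization, 19 higher without a filter, 1 and 2 at the 75th percentile, 0 higher for the second brightest probe set and 2 and 0 at 2-fold. Leaving out a CR array gave 5 to 6 higher and 4 to 7 lower, the 7 without the 5% array. The cause of these shifts was not tested.

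Of 440 alternatives for 37 named genes, 377 kept direction and side of the threshold, 34 lost the call, 15 gained it and 14 turned direction. The second brightest probe set turned Slc6a6 (0.59), Slc18a2 (-0.02), Slc6a9 (-1.02), Slc38a1 (0.09) and Slc6a8 (-1.03). Median scaling turned Slc18a2 (-0.22), Slc6a9 (-0.31), Slc38a2 (-0.27) and Slc6a8 (-0.06). Slc7a11 turned with quantile normalization (0.08), cyclic loess (0.03) and without the 30% array (0.04), Slc6a9 without the 20% array (-0.02, over a range of -0.02 to 0.24 when a CR array was left out) and Slc38a9 without the 5% array (0.01, over a range of -0.30 to 0.01). Calls over all genes with the trend left out were 771 higher and 547 lower, against 1098 and 1075. No paired analysis was possible because each group had 1 array and the labels gave no replicate numbers.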
